A study of Mus musculus with 9 samples.

Results

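Solute carriers (Slc genes) are the membrane proteins that move sugars, amino acids, nucleosides, vitamins, metals, ions and metabolites across the plasma membrane and the membranes of lysosomes, the Golgi apparatus and mitochondria. The genes described here were chosen by their names and selected on their mean level over both groups together: they are those of the deposited expression table whose symbol begins with Slc and a family number and whose mean normalized count over all 9 samples is at least 20. The glucose carriers Slc2a1, Slc2a3 and Slc2a6, the lactate carriers Slc16a1 and Slc16a3, the cystine carrier Slc7a11 and the iron carriers Slc11a1, Slc11a2 and Slc40a1 were left out by name, and so were pseudogene symbols ending in -ps. Of 45535 named rows, 384 carry an Slc symbol, 9 of these were left out by name, 4 were pseudogenes and 128 fell below the minimum mean (13 of them had no read in any sample), which leaves 243. Just outside the minimum were Slc23a4 (mean 19.2), Slc4a10 (19.3) and Slc39a5 (19.9), and just inside were Slc1a1 (20.01), Slc38a5 (20.7) and Slc44a4 (21.3). All 243 were tested, and 25 of them have a mean under 20 in 1 group (7 before culture, 18 after), so that the level in the other group decided their inclusion.

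The study measured RNA of CD103+ dendritic cells of the lung (CD103 is an integrin), taken from C57/BL6j mice 7 days into bleomycin treatment, a chemical lung injury that both groups share. Lungs were digested with collagenase and the cells were enriched on magnetic beads, after which 5 samples were lysed at once (before culture) and 4 were cultured for 18 h (after culture), in RPMI to which 10% FBS and 1% of penicillin and streptomycin had been added. No sample from untreated mice and no uncultured time-matched sample enters the comparison, and the labels call the extracted material total lung RNA although they give the cell type as CD103+ DCs. Whether a sample is 1 mouse or a pool is not given by the labels, so p-values measure the spread between these samples, which may be in part technical.

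CD103+ dendritic cells take up antigen in the airways and carry it to the lymph node, and a maturing dendritic cell changes how it feeds itself. Amino acid carriers of the plasma membrane supply protein synthesis, while carriers of the lysosome return the amino acids, nucleosides, heme and metals of digested cargo to the cytosol. Transcription of both sets is known to respond to different regulators: Atf4 acts on genes of amino acid supply, Mitf and its relatives on lysosomal genes, and Mtf1 on genes of zinc handling.

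Values are normalized counts, that is, reads per gene divided by 1 depth factor per sample, and 1 read is worth 0.758 to 1.79 of them. Depth in named rows was 14.7 to 28.8 M reads before culture and 26.0 to 35.3 M after. The fold changes given with a standard error are log2 differences, after minus before, from limma on log2(value + 1), and a gene is called higher or lower at a Benjamini-Hochberg adjusted p under 0.05 over all 18202 tested genes. Markers of the sorted cell and of several other cell types moved together with the groups. Of 8 markers of CD103+ dendritic cells, 7 were lower after culture (Batf3 was higher), and their summed level was 111800 to 137900 before and 16130 to 17480 after. Endothelial, epithelial, fibroblast and neutrophil markers were lower after culture in 8 of 8, 8 of 8, 6 of 6 and 7 of 7 tested genes. Alveolar macrophage markers were lower in 4 of 5, T and NK cell markers were lower in 3 of 6, and of 4 B cell markers 1 was higher and 1 lower, with the others of these lists not past the threshold. Before replicate 4 and after replicate 3, which carry the same library number, had the highest levels of the alveolar epithelial marker Sftpc in their groups (16826 and 3606). In bulk RNA, fewer cells of a type and less RNA per cell cannot be told apart.

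To show what lies upstream of carriers that moved in opposite directions, the stretches below are taken from the 250 bases before RefSeq transcription starts in GRCm38.p6, each read 5′ to 3′ on its gene's strand. Capitals mark CACGTG, the palindromic E-box that Mitf relatives and other basic helix-loop-helix factors can bind, and Slc44a5, the carrier with the largest rise, is shown without a match.
Slc36a1 chr11:55204282-55204339 (plus strand): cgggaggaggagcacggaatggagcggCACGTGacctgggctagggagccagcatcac
Slc33a1 chr3:63964826-63964885 (minus strand): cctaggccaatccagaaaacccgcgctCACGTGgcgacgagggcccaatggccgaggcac
Slc22a4 chr11:54028300-54028354 (minus strand): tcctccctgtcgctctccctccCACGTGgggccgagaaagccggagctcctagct
Slc24a4 chr12:102128607-102128666 (plus strand): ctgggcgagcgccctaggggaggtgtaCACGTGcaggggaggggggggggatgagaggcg
Slc13a3 chr2:165473319-165473378 (minus strand): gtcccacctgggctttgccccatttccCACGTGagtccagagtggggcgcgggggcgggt
Slc44a5 chr3:153973316-153973435 (plus strand): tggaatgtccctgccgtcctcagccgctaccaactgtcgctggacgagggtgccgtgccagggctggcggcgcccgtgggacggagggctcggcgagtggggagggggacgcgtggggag
The first 3 genes were higher after culture, Slc24a4 and Slc13a3 were lower, and Slc44a5 was higher. The letters CACGTG, which read the same on both strands, lie within those 250 bases in 29 of the 186 carriers with a promoter entry (15.6%) and in 1854 of all 27025 genes with one (6.86%). The 27025 genes were not filtered by level, unlike the carriers, so the shares are not of like sets. Among carriers higher by 2-fold or more the share was 4 of 28 (14.3%), among those lower by 2-fold or more 6 of 35 (17.1%), and among those not past the threshold 11 of 55 (20%). The letters were thus found upstream of carriers that rose, of carriers that fell and of carriers that did neither. A match is a run of letters and not a measured site. For Slc6a2, Slc48a1, Slc7a5 and Slc6a8 no sequence is shown.

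Across the carriers, rises and falls were nearly equal in number. After culture 89 were higher, 86 were lower and 68 did not pass the threshold, so that 72% were called, against 68.8% of all tested genes. Of the 16146 tested genes with a mean of at least 20, which is the more like set, 71.1% were called (35.3% higher, 35.8% lower). The carriers' median log2 fold change was −0.06 (quartiles −0.67 and 0.59), beside 0.01 over all tested genes. The depth factors place the median gene near no change, so rises and falls are relative to it. By at least 2-fold, 33 rose and 49 fell. Over all tested genes 32.7% changed by as much (14.1% higher, 18.6% lower), and over those with a mean of at least 20 it was 31.2% (13.1% higher, 18.1% lower). No carrier was taken out of the counts for a mean under 20 in 1 group. There were 7 such carriers before culture and 18 after, and the other group decided their inclusion. The groups did not overlap for 148 carriers, 74 in each direction, beside 57.3% of all tested genes and 60% of those with a mean of at least 20. The share of carriers that changed was therefore close to that of the transcriptome, and what follows is about which substrates the changed carriers move.

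**Figure D1:**
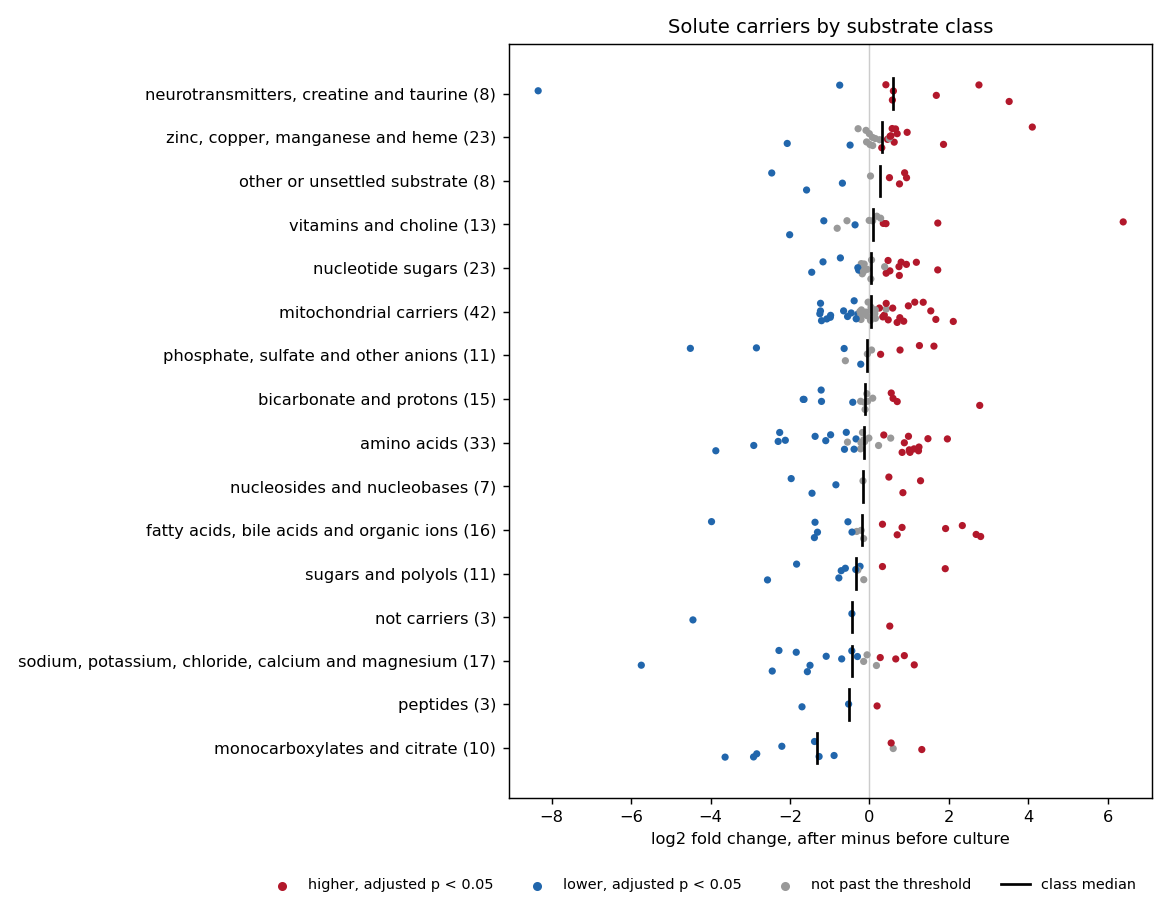
Log2 fold change (after minus before culture, horizontal axis) of each of the 243 genes, 1 point per gene, in rows by substrate class with the number of genes in brackets. Red points were higher, blue points lower, grey points did not pass an adjusted p of 0.05, and black bars are class medians, which run from −1.33 for monocarboxylates and citrate to 0.59 for neurotransmitters, creatine and taurine.

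By substrate, carriers of monocarboxylates and citrate had the lowest median (−1.33, 7 of 10 lower, 2 higher), and carriers of neurotransmitters, creatine and taurine the highest (0.59, 6 of 8 higher, 2 lower). Zinc, copper, manganese and heme carriers were more often higher than lower (11 of 23 higher, 2 lower, median 0.31). Sugar and polyol carriers (2 of 11 higher, 7 lower, median −0.35) and carriers of sodium, potassium, chloride, calcium and magnesium (4 of 17 higher, 10 lower, median −0.45) were more often lower. Amino acid carriers (12 higher, 12 lower of 33), mitochondrial carriers (15 higher, 13 lower of 42) and phosphate and sulfate carriers (4 higher, 4 lower of 11) moved both ways. These counts read against 34.2% of all tested genes higher and 34.6% lower. Differences between classes were not tested.

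Genes were compared with each other per kilobase of the longest annotated transcript. That transcript need not be the one expressed, so the ranks are approximate. On this scale the most abundant carrier transcripts before culture were Slc25a5 (6707 normalized counts per kilobase), Slc3a2 (3095), Slc6a6 (2952), Slc38a2 (2590) and Slc25a3 (2514). After culture the order opened with Slc6a6, Slc25a5, Slc48a1, Slc3a2 and Slc25a3. Slc7a5 moved from rank 11 to rank 87, and Slc1a5 from rank 9 to rank 39, among the 241 genes with an annotated length.

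Of the 33 amino acid carriers, 12 were lower after culture, among them the abundant importers Slc7a5, Slc1a5, Slc7a1 and Slc38a2. Another 12 were higher, among them the efflux carrier Slc43a2 and the lysosomal carriers Slc36a1, Slc38a7 and Slc38a9, and 9 did not pass. Slc7a5 (chr8:121881150-121907694, minus strand, GENCODE M21 on GRCm38.p6), the light chain that exchanges large neutral amino acids such as leucine, was at 4717, 3701, 4588, 4000 and 5060 before culture. After culture it was at 893, 930.2, 885 and 855. The groups lie far apart, with the 4 cultured samples close together, and the mean was 4.95 times lower (log2 fold change −2.30, SE 0.0907, adjusted p = 1.21e-10). Slc3a2, the heavy chain that brings Slc7a5 and its relatives to the cell surface, was at 9052, 8725, 9154, 7623 and 8980 before and at 7964, 8469, 6495 and 7972 after culture. The heavy chain did not pass the threshold (adjusted p = 0.0938, log2 fold change −0.18, SE 0.0892) and its groups overlap. Without before replicate 4, or without after replicate 2, the heavy chain was called lower (log2 fold change −0.22 in each case).

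The other partners of the heavy chain moved in different directions. Slc7a8, a second exchanger of neutral amino acids, was at 1415, 1742, 2008, 855 and 1828 before and at 3687, 6102, 1860 and 3751 after culture. It rose 2.45-fold (log2 fold change 1.23, SE 0.296, adjusted p = 0.00219), although after replicate 3 lies within the range before culture. Slc7a6, which exchanges cationic for neutral amino acids, fell from 904 ± 61.2 to 690.0 ± 32.4 (SD, n = 5 and n = 4). Slc7a7, of the same kind, was at 738 ± 79.4 and 644 ± 139 and did not pass the threshold (adjusted p = 0.177), though it was called lower without after replicate 2 (log2 fold change −0.33).

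Among carriers that work without the heavy chain, the glutamine exchanger Slc1a5 was at 3907, 3644, 3894, 3251 and 4045 before and at 1542, 1510, 1361 and 1381 after culture, a fall of 2.59-fold with no overlap. The cationic amino acid carrier Slc7a1, a main entry for arginine, fell 2.14-fold, from 3418 ± 159 to 1594 ± 115 (SD, n = 5 and n = 4). Its relative Slc7a2, whose induction is known from macrophages that consume arginine, went from 2715 to 2140 (adjusted p = 0.0195), with overlapping groups, and was not called without after replicate 4 or before replicate 2. Slc38a2, the sodium-coupled carrier of small neutral amino acids that responds to starvation, was at 15317, 14560, 15722, 17238 and 16371 before and at 7740, 7111, 8893 and 8470 after culture, a fall of 1.97-fold. It nevertheless remained one of the most abundant carrier transcripts. Slc38a1, of the same family, fell 1.55-fold from 6158 to 3980, and the rare Slc38a5 from 35.9 ± 17.02 to 1.81 ± 1.97, where no cultured sample has more than 6 reads. The fold change of Slc38a5 depends on the pseudocount (−3.87 with 1, −2.10 with 8).

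The rises began with an efflux carrier. Slc43a2, a facilitative carrier that lets branched-chain amino acids leave the cell, was at 4032, 3908, 4052, 2878 and 4011 before and at 7852, 10170, 5526 and 9965 after culture. Every cultured sample exceeds every uncultured one, and the mean rose 2.22-fold (log2 fold change 1.12, SE 0.163, adjusted p = 3.9e-05). The aromatic amino acid carrier Slc16a10 rose 2.01-fold (752 to 1514). Slc36a1, the proton-coupled exporter of small amino acids from lysosomes, was at 1771, 1840, 1761, 1194 and 1912 before and at 3138, 4258, 2442 and 3647 after culture, and its relative Slc36a4 rose 2.04-fold (1176 to 2395). Slc38a7, which exports glutamine from lysosomes, rose 1.87-fold (721 to 1346). Slc38a9, which reports lysosomal arginine to the mTOR complex, rose 1.28-fold (log2 fold change 0.36, SE 0.0823). Slc66a1, the lysosomal exporter of cationic amino acids, was at 549 and 507 and did not pass the threshold (adjusted p = 0.321). The largest rise of the class by ratio was in the low-abundance Slc7a15 (12.03 to 45.3).

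**Figure D2:**
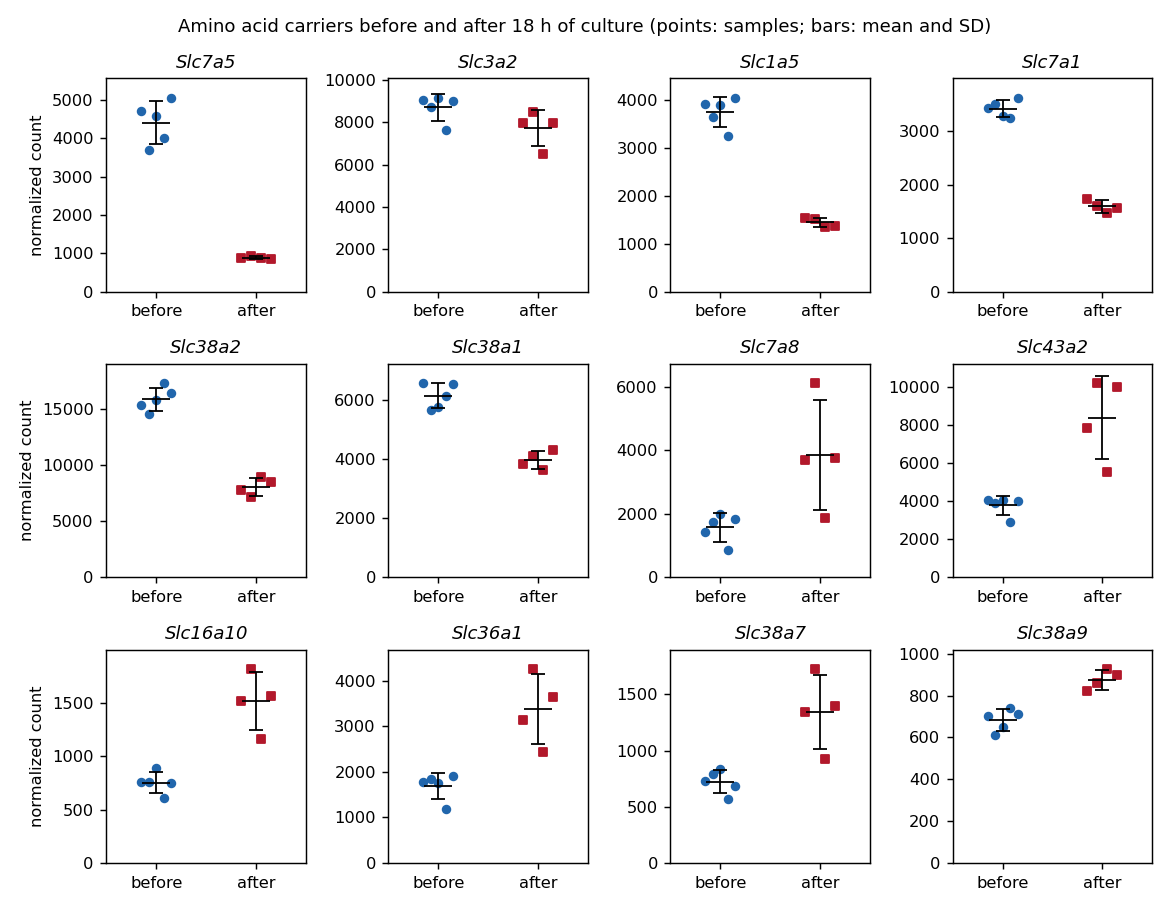
Normalized counts (linear axis from 0, scaled separately for each gene) of 12 amino acid carriers in the 5 samples before (blue circles) and the 4 samples after culture (red squares), 1 point per sample, with black bars for the mean and SD. Slc7a5, Slc1a5, Slc7a1, Slc38a2 and Slc38a1 lie lower after culture and Slc43a2, Slc16a10, Slc36a1, Slc38a7 and Slc38a9 higher, all with no overlap, while the samples of Slc3a2 and Slc7a8 overlap.

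The carriers of di- and tripeptides moved less uniformly, and in none of the 3 were the groups apart. Slc15a2, which takes up peptides at the cell surface, was at 1275, 1615, 1083, 2478 and 326 before and at 429, 341, 968 and 100.3 after culture. The samples spread more than 7-fold within each group, and the groups overlap. Before replicate 4 and after replicate 3 were the highest of their groups, and before replicate 5 and after replicate 4 the lowest. The fall in the means was 2.95-fold (log2 fold change −1.70, SE 0.595, adjusted p = 0.0214), and without after replicate 4 it was −1.11 with an adjusted p of 0.0842. Slc15a3, which moves peptides and histidine out of endolysosomes, was at 8531, 8370, 8917, 6128 and 9184 before and at 6630, 7752, 3834 and 5195 after culture. Its log2 fold change was −0.53 (adjusted p = 0.0171), and without after replicate 4 it was −0.48 with an adjusted p of 0.0504. Of Slc15a3, 28.1% of the exon bases overlap exons of Tmem132a on the other strand, so that reads of the pair may be shared. Slc15a4, the endolysosomal histidine and peptide carrier required for nucleic acid sensing, was at 1770, 1710, 1727, 1584 and 1826 before and at 2053, 1757, 2012 and 2056 after culture. The rise was 1.14-fold (log2 fold change 0.19, adjusted p = 0.0338). The call was lost in 9 of 19 alternative settings, with log2 fold changes of 0.16 to 0.21 in those settings.

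Among carriers of neurotransmitters, creatine and taurine, 6 of 8 were higher and 2 lower, and the transcripts for noradrenaline and serotonin uptake moved in opposite directions. Slc6a2 (chr8:92960079-93001667, plus strand, GENCODE M21), the noradrenaline transporter, was at 661, 674, 945, 809 and 689 before culture. After culture it was at 3.53, 5.31, 0 and 0, with 2 of the 4 libraries listed at 0. This is the largest fall of all carriers (342-fold in the means, log2 fold change −8.34, SE 0.484, adjusted p = 4.84e-09), and with a pseudocount of 8 the log2 fold change is −6.25. The noradrenergic neuron genes Th and Dbh had means of 0.224 and 3.22 before culture, and after culture both were at 3 reads or fewer in every sample. Slc6a4, the serotonin transporter, was at 102, 172, 74.05, 213 and 89.5 before and at 723, 650.5, 953 and 988 after culture, a rise of 6.36-fold with no overlap. Slc6a12, which takes up betaine and GABA, was at 18.1, 19.8, 34.8, 19.3 and 37.6 before and at 286, 314, 253 and 322 after culture, a rise of 11.3-fold (log2 fold change 3.52, SE 0.234). The creatine carrier Slc6a8 rose 3.22-fold, from 714 ± 174 to 2298 ± 601 (SD, n = 5 and n = 4). Slc6a6, which accumulates taurine, was already the most abundant carrier of the class and rose 1.49-fold, from 18259 ± 1422 to 27231 ± 2257. The inositol carrier Slc5a3, of the sugar and polyol class, went from 711 to 878 with overlapping groups (adjusted p = 0.0431), and that call ended in 12 of 19 alternative settings.

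**Figure D3:**
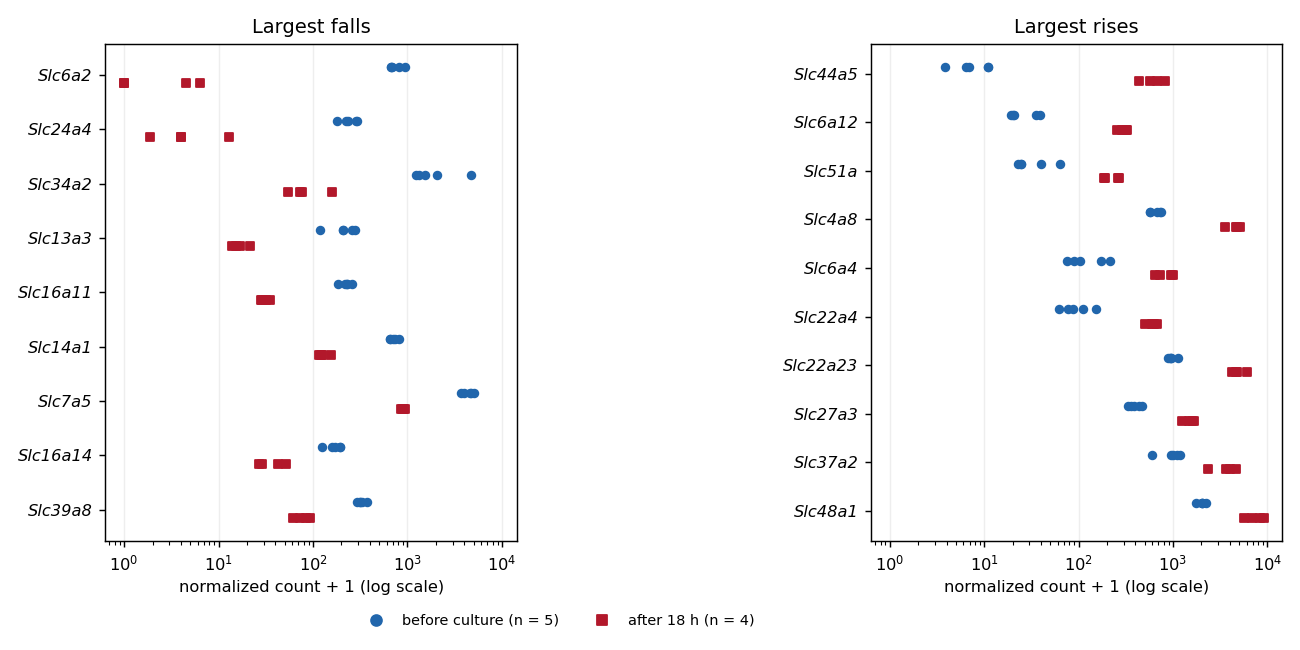
Normalized counts plus 1 (log axis) of 9 of the 10 largest falls (left) and the 10 largest rises (right) among carriers with a mean of at least 100, 1 point per sample, with 5 samples before (blue circles) and 4 after culture (red squares). No gene shown has overlapping groups, and Slc6a2 reaches 0 in 2 of the 4 cultured samples while Slc44a5 stays at 10.1 or less in every uncultured sample.

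Choline carriers included the largest rise of all. Slc44a5 (chr3:153973436-154271722, plus strand, GENCODE M21 on GRCm38.p6), a choline transporter-like protein, was at 2.86, 9.9, 10.1, 5.86 and 5.37 before culture. After culture it was at 681, 431, 822 and 564. The gap between the groups is wide, with a ratio of means of 91.6 (log2 fold change 6.39, SE 0.31, adjusted p = 8.67e-10, and 5.40 with a pseudocount of 8). Slc44a1, the best known choline carrier of this family, was at 1209, 1408, 1656, 1421 and 1409 before and at 4280, 4920, 4256 and 5249 after culture, a rise of 3.29-fold. Slc44a2, of the same family, fell 2.22-fold, from 3749 ± 160.0 to 1691 ± 109.8 (SD, n = 5 and n = 4). Among vitamin carriers, the riboflavin transporter Slc52a3 was at 837, 817, 798, 559 and 881 before and at 208, 201, 189 and 166 after culture, a fall of 4.08-fold. The ascorbate carrier Slc23a2 went from 2518 to 3234 (adjusted p = 0.00924) with overlapping groups. Slc19a1, which carries reduced folates and cyclic dinucleotides, was at 214, 228, 252, 175 and 285 before and at 254, 252, 219 and 239 after culture and did not pass the threshold (adjusted p = 0.63).

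Heme and metals followed. Slc48a1 (chr15:97778520-97792692, plus strand, GENCODE M21), which moves heme out of lysosomes, was at 2041, 2017, 2243, 1762 and 2019 before and at 6821, 9126, 5582 and 8247 after culture. It rose 3.69-fold with no overlap (log2 fold change 1.86, SE 0.124, adjusted p = 1.85e-08). Globin and other red cell markers were lower after culture in 5 of 5 tested genes, with summed levels of 4243 to 14100 before and 783 to 3975 after. Slc30a1, which exports zinc from the cell and is a known target of Mtf1, rose 1.6-fold (1019 to 1627), and Slc30a9 1.54-fold (1022 to 1571). Slc30a2, which loads zinc into vesicles, was at 1.9, 2.47, 2.24, 0.837 and 8.95 before and at 67.1, 32.6, 89.2 and 68.4 after culture, so that it appeared at a low level. Its log2 fold change is 4.10 (SE 0.469), or 2.65 with a pseudocount of 8.

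Of 7 Slc30 carriers, most of which move zinc out of the cytosol, 5 were higher and 1 lower. Of 13 Slc39 carriers, which move zinc and other metals into the cytosol, 4 were higher and 1 lower. The difference between the families was not tested. Slc39a8, which brings zinc and manganese into the cytosol, was at 313, 332, 312, 373 and 292 before and at 72.4, 59.9, 92.8 and 83.6 after culture, a fall of 4.2-fold. Slc39a1, the most abundant zinc importer, was at 3326 ± 308 and 3409 ± 767 (SD, n = 5 and n = 4) and did not pass (adjusted p = 0.944). Of its transcript windows, 21.8% also occur in its pseudogene. Slc39a14, a carrier of zinc, iron and manganese, was at 1451 and 1366 (adjusted p = 0.56). For copper, Slc31a2 rose 1.65-fold (706 to 1165), whereas the importer Slc31a1, at 1006 and 1222, did not pass (adjusted p = 0.079), although it was called higher without after replicate 3 (log2 fold change 0.39).

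Carriers of monocarboxylates and citrate formed the class with the lowest median. Slc13a3, which takes up succinate and other dicarboxylates, was at 277, 209, 259, 117 and 206 before and at 14.1, 20.5, 12.7 and 15.96 after culture, a fall of 13.5-fold. Every uncultured sample is clear of every cultured one. Slc16a11, a proton-coupled monocarboxylate carrier, fell 7.37-fold (223 to 30.2), Slc16a14, whose substrate is not settled, 4.6-fold (167 to 36.3), and Slc16a13 2.63-fold (322 to 122). Slc16a9, known for carnitine, fell 2.39-fold (357 to 149.7) and Slc16a6, which exports ketone bodies, 1.85-fold (1308 to 707), and exons of other genes on the opposite strand cover 23.5% and 22.5% of their exon bases. Slc16a4 rose 2.56-fold (47.03 to 120.2). Slc16a7, which imports pyruvate and lactate, went from 294 to 438 (adjusted p = 0.00962) with overlapping groups.

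Most sugar and polyol carriers outside the glucose carriers left out by name were lower. The intracellular hexose carrier Slc2a8 fell 1.64-fold (318 to 194), the urate carrier Slc2a9 1.69-fold (207 to 123), Slc2a10 3.48-fold (46.6 to 13.4) and the proton-coupled inositol carrier Slc2a13 5.79-fold (49.4 to 8.54). Slc37a2, a sugar-phosphate exchanger of the endoplasmic reticulum known from macrophages, was at 948, 1002, 1176, 594 and 1112 before and at 3649, 4590, 2332 and 3983 after culture. It rose 3.76-fold with no overlap, and is the only carrier of its class that rose by more than 2-fold.

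Of 7 nucleoside and nucleobase carriers 3 were higher and 3 lower, and the relatives Slc29a1 and Slc29a3 moved in opposite directions. Slc29a1, the equilibrative nucleoside carrier of the cell surface, was at 1495, 1695, 1519, 1301 and 1325 before and at 835, 950.0, 655 and 836 after culture, a fall of 1.79-fold. Slc29a3, its lysosomal relative, was at 4164, 4195, 4000, 3405 and 4008 before and at 7053, 7682, 5608 and 8198 after culture, a rise of 1.8-fold (log2 fold change 0.84, SE 0.106, adjusted p = 9.91e-06). Neither gene has overlapping groups. Slc43a3, a purine nucleobase carrier, fell 3.95-fold, from 1530 ± 188 to 388 ± 22.6 (SD, n = 5 and n = 4). The concentrative carrier Slc28a2 and the neighbouring copy Slc28a2b share 39.8% and 40.6% of their transcript windows with a near-identical gene, so the split of reads between them is uncertain. Slc28a2 was at 434 ± 56.5 and 395 ± 108 and did not pass (adjusted p = 0.367), while Slc28a2b rose from 146 ± 51.9 to 372 ± 185 with overlapping groups. Without after replicate 3, Slc28a2 was called lower (log2 fold change −0.33).

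Lysosomal carriers of several substrates can be set side by side, a grouping chosen after their values were seen and not a full list of such carriers. Of 12 carriers placed in lysosomes or late endosomes by textbook knowledge, 7 were higher, 2 lower and 3 did not pass, with a median log2 fold change of 0.28 and a range of −0.68 to 1.86, beside 34.2% higher and 34.6% lower over all tested genes. Besides those named above, the sialic acid exporter Slc17a5 rose 1.91-fold, from 338 ± 39.2 to 646 ± 75.9 (SD, n = 5 and n = 4). Slc46a3, which has been linked to the passage of peptide and drug fragments out of lysosomes, was at 2120, 2117, 1950, 2278 and 2168 before and at 1255, 1043, 1505 and 1556 after culture, a fall of 1.59-fold with no overlap. Slc49a4 (1002 and 1015) and the sulfate and chloride carrier Slc26a11 (361 and 373) did not pass the threshold. Slc66a3, a relative of Slc66a1 whose substrate is not settled, rose 1.85-fold (1529 to 2826).

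Organic ion, bile acid and fatty acid carriers were higher in 7, lower in 6 and not past the threshold in 3 of 16. Slc22a23, an organic ion carrier family member without a settled substrate, was at 924, 955, 961, 1115 and 877 before and at 4759, 4212, 5999 and 4675 after culture, a rise of 5.08-fold. Slc22a4, which takes up the antioxidant ergothioneine, was at 76.2, 86.6, 110.0, 61.1 and 150.4 before and at 668, 626, 508 and 604 after culture, a rise of 6.21-fold. Its relative Slc22a5, the carnitine carrier, fell from 646 to 442, and 27.1% of its windows occur in Slc22a21. Slc22a15 fell 2.6-fold (975 to 376). Slc51a, a subunit of the organic solute carrier that exports bile acids and steroids, rose from 34.2 ± 17.5 to 227 ± 44.1 (SD, n = 5 and n = 4), with 17.7% of its exon bases overlapped by Pcyt1a on the other strand. Slc27a3, an acyl-CoA synthetase of the fatty acid transport family, was at 361, 431, 388, 329 and 464 before and at 1675, 1466, 1586 and 1231 after culture, a rise of 3.78-fold. Slc27a1 went from 1131 to 1847 (adjusted p = 0.00828) and Slc27a4 from 1162 to 852 (adjusted p = 0.0137), both with overlapping groups. Slc10a6, a carrier of sulfated steroids, fell from 47.4 ± 11.4 to 2.79 ± 2.69, with log2 fold changes of −3.98 and, with a pseudocount of 8, −2.37.

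Phosphate and sulfate carriers held a gene of the alveolar epithelium. Slc34a2, the phosphate cotransporter by which alveolar type II cells clear phosphate from surfactant, was at 1535, 2046, 1242, 4749 and 1332 before and at 72.4, 53.8, 158 and 74.5 after culture. The fall was 24.3-fold (log2 fold change −4.51, SE 0.367), with every uncultured sample far above every cultured one. Epithelial markers were lower after culture in 8 of 8 genes with summed levels of 26340 to 45330 before and 4498 to 8887 after, and Sftpc, like Slc34a2, was highest in before replicate 4 and in after replicate 3. The part of these cells in the fall of Slc34a2 was not tested. Slc20a1, the widely expressed phosphate importer, was at 4610 ± 429.8 and 3963 ± 461 (SD, n = 5 and n = 4), and its call (adjusted p = 0.0483) ended in 12 of 19 alternative settings. Of its exon bases, 13.1% are overlapped on the other strand. The sulfate carrier Slc26a2 was at 1886, 1788, 1923, 1785 and 1847 before and at 4412, 4112, 4490 and 4644 after culture, a rise of 2.39-fold, and Slc26a1 rose 3.11-fold (78.2 to 243).

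Slc14a1, the urea carrier of red cells and vascular endothelium, was at 819, 652, 644, 695 and 730.3 before and at 116, 123, 155 and 119 after culture, a fall of 5.53-fold. Endothelial markers had summed levels of 23670 to 34790 before and 3312 to 4346 after culture. Their part in the fall of Slc14a1, and that of red cells, was not tested.

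Carriers of sodium, potassium, calcium and magnesium were more often lower. Slc24a4, an exchanger of sodium for calcium and potassium, was at 224, 288, 283, 233 and 179 before and at 0.883, 3.03, 11.8 and 3.04 after culture. Its fall was 51.4-fold in the means, with a log2 fold change of −5.74 (SE 0.419) or, with a pseudocount of 8, −4.35. The related Slc24a1 fell 2.89-fold (1030 to 356), while the low-abundance Slc24a5 rose from 13.8 to 32.1, with 39.5% of its exon bases overlapped by Myef2. Slc41a1, which exports magnesium, was at 3475, 3079, 3075, 3144 and 3462 before and at 962, 895, 913 and 843 after culture, a fall of 3.59-fold with little spread in either group. Slc8b1, the sodium and calcium exchanger of mitochondria, fell 2.14-fold (3849 to 1797). The plasma membrane exchanger Slc8a1 was at 1897 and 1825 and did not pass (adjusted p = 0.635). Of the cation and chloride cotransporters, Slc12a2, which brings chloride in, fell 1.63-fold (878 to 540.2), and Slc12a7, which lets potassium and chloride out, 1.23-fold (3347 to 2716).

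Bicarbonate and proton carriers were higher in 4, lower in 5 and not past the threshold in 6 of 15. By at least 2-fold, 1 of them rose and 4 fell. Slc4a8, the sodium-driven exchanger of chloride for bicarbonate, was at 728, 564, 753, 572 and 675 before and at 4695, 3543, 5089 and 4759 after culture. It rose 6.87-fold (log2 fold change 2.77, SE 0.119, adjusted p = 2.69e-10) with no overlap. The bicarbonate cotransporter Slc4a7 rose 1.51-fold (2055 to 3104). Slc9a9, the proton exchanger of endosomes, fell 3.19-fold, from 1642 ± 181 to 515 ± 52.99 (SD, n = 5 and n = 4).

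Carriers of the endoplasmic reticulum and the Golgi apparatus, which bring nucleotide sugars and other donors to the enzymes of glycosylation, were higher in 9, lower in 5 and not past the threshold in 9 of 23. Slc33a1, which carries acetyl-CoA into the endoplasmic reticulum, was at 685, 689, 716, 739.9 and 695 before and at 2024, 2124, 2715 and 2480 after culture, a rise of 3.31-fold with no overlap. Of its exon bases 32.0% are overlapped by Gm26850 on the other strand. Slc35b2, which carries the sulfate donor used on glycans and proteins into the Golgi, was at 2255, 2073, 2116, 2088 and 2300 before and at 823, 823, 698 and 820.3 after culture, a fall of 2.74-fold. Slc35b4 (1011 to 2288) and the UDP-N-acetylglucosamine carrier Slc35a3 (1245 to 2371) rose 2.26-fold and 1.9-fold, and 10% of the exon bases of Slc35b4 are overlapped by Gm13856. Slc35a1, which carries CMP-sialic acid, rose 1.39-fold (241 to 335). Slc35c2, which has been linked to fucosylation of Notch, fell 2.25-fold (2126 to 944). The abundant Slc35e1, without a settled substrate, was at 3907 and 3767 and did not pass (adjusted p = 0.486).

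The carriers of the mitochondrial inner membrane, the Slc25 family, were higher in 15, lower in 13 and not past the threshold in 14 of 42, with a median log2 fold change of 0.03. Slc25a3 and Slc25a5, the most abundant of the family, were lower. Slc25a3, which brings in phosphate for ATP synthesis, was at 10757, 10156, 10679, 8613 and 10554 before and at 7266, 7128, 6526 and 6710 after culture, a fall of 1.47-fold with no overlap. Slc25a5, an exchanger of ADP and ATP, fell 1.55-fold (8317 to 5351), with 46.6% of its windows shared with processed copies such as Gm5560. Slc25a20, which carries acylcarnitines to beta-oxidation, was at 2323, 2022, 1833, 2052 and 2422 before and at 1026, 1011, 964 and 1025 after culture, a fall of 2.12-fold.

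Other mitochondrial carriers differed even among relatives. The exchangers of magnesium-ATP for phosphate Slc25a23 and Slc25a25 fell 2.36-fold (425 to 180.0) and 1.97-fold (2027 to 1028), whereas Slc25a24, of the same function, rose 1.5-fold (1295 to 1940). For glutathione import, Slc25a40 rose 2.9-fold (125 to 364), and the more abundant Slc25a39 went from 1432 to 1106 (adjusted p = 0.0224) with overlapping groups and was not called without after replicate 3 or before replicate 2. The iron carriers divided too. Slc25a28 fell 1.99-fold (924 to 464), and Slc25a37 went from 1128 to 1337 (adjusted p = 0.026), not called without after replicate 1 or before replicate 2. Slc25a38, which supplies glycine for heme synthesis, fell 2.35-fold (1656 to 704). Slc25a51, which imports NAD, was at 1852, 2059, 2072, 1757 and 1833 before and at 3033, 3403, 2731 and 3251 after culture, a rise of 1.62-fold. The oxoglutarate and malate exchanger Slc25a11 rose 1.27-fold (1613 to 2044), and the largest rise of the family was in Slc25a43, without a settled substrate (39.9 to 166).

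**Figure D4:**
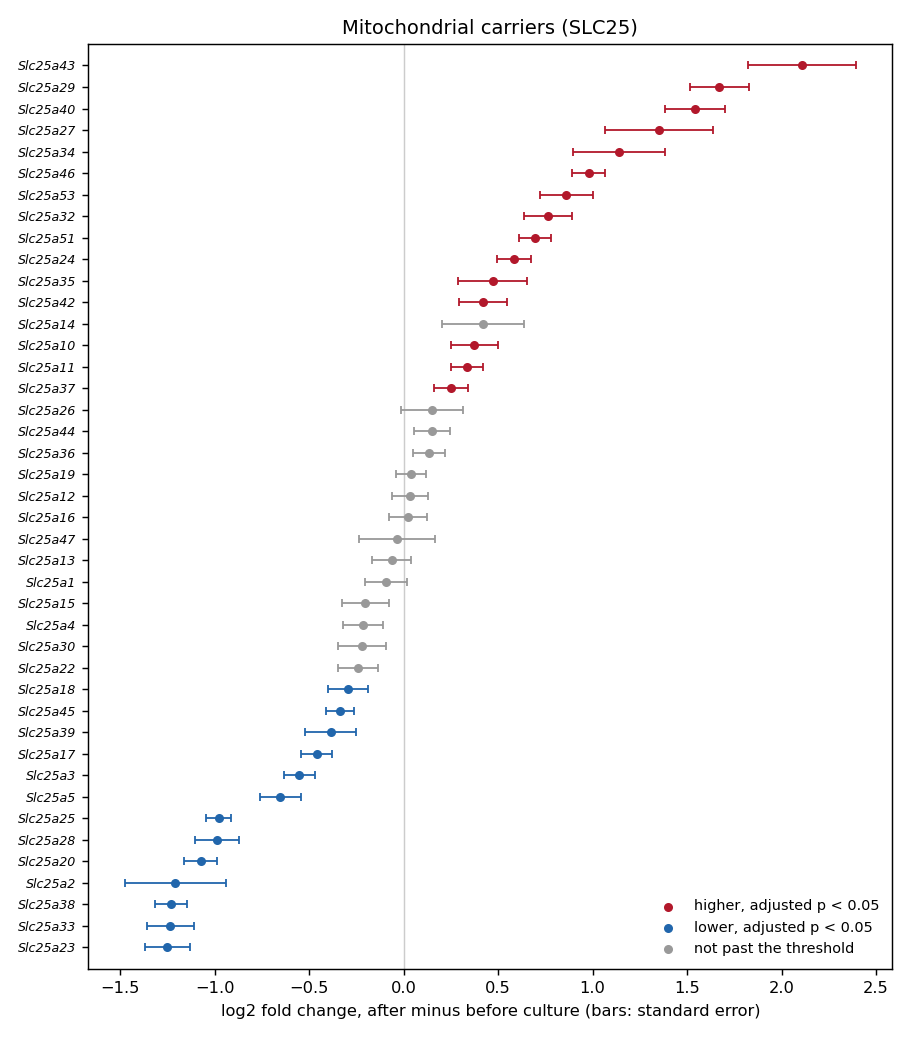
Log2 fold change (after minus before culture, horizontal axis) of each of the 42 Slc25 carriers, 1 row per gene, with bars for the standard error from limma. Red genes were higher, blue genes lower and grey genes not past an adjusted p of 0.05, and the values run from −1.25 for Slc25a23 to 2.11 for Slc25a43.

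The symbol rule also took in 3 genes that are not carriers. Slc36a3os, a noncoding transcript named for its place opposite Slc36a3, fell from 150.1 ± 30.9 to 5.97 ± 1.7 (SD, n = 5 and n = 4, log2 fold change −4.44, and −3.48 with a pseudocount of 8). Slc7a6os fell from 724 to 535 and Slc4a1ap rose from 493 to 699.9. Without them, 88 of 240 carriers were higher and 84 lower.

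Of 45 tested transporters that carry other symbols, 17 were higher, 15 were lower and 13 did not pass (71.1% called, median log2 fold change −0.08). This is close to the 68.8% called over all tested genes. Slco5a1, of the organic anion family, was at 229, 202, 222, 224 and 258 before and at 4374, 2983, 4669 and 4390 after culture, a rise of 18.1-fold. Slco2a1, which takes up prostaglandins, was at 7276, 8224, 9763, 7359 and 6455 before and at 384, 603, 546 and 471 after culture, a fall of 15.6-fold. Neither gene has overlapping groups. Endothelial markers had summed levels of 23670 to 34790 before and 3312 to 4346 after culture, and the part of endothelial cells in the fall of Slco2a1 was not tested. The heme exporter Flvcr1 rose 2.52-fold (1194 to 3013). The 2 subunits of the mitochondrial pyruvate carrier moved apart, Mpc1 rising 1.59-fold (928 to 1472) and Mpc2 falling 1.71-fold (713 to 416). Ucp2, a mitochondrial carrier of metabolites, fell 2.18-fold (49935 to 22894).

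Of 28 tested regulators and partners of carriers, 11 were higher, 11 lower and 6 did not pass (78.6% called, beside 68.8% of all tested genes, with a median log2 fold change of −0.03). Atf4, the factor of the amino acid response, was at 7838, 8065, 7923, 7085 and 8374 before and at 3538, 3662, 3361 and 3389 after culture, a fall of 2.25-fold. Mitf, of the family that drives lysosomal genes, was at 848, 973, 1444, 761 and 1006 before and at 2524, 3362, 2106 and 3054 after culture, a rise of 2.74-fold. Of its relatives, Tfeb was called lower (1331.8 to 1059.5, adjusted p = 0.0341) with overlapping groups. Tfe3 did not pass the threshold (log2 fold change 0.144, adjusted p = 0.257). Mtf1, which responds to zinc, was at 1177, 1158, 1200, 1173 and 1196 before and at 2170, 2210, 2084 and 2294 after culture, a rise of 1.85-fold. For Atf4, Mitf and Mtf1 the groups stand clear of each other at the RNA level, and the activity of these factors was not measured. Bsg, the chaperone of monocarboxylate carriers, went from 2769 to 2109 (adjusted p = 0.0186) with overlapping groups and was not called without after replicate 3. The genes of this paragraph and of the one before it come from lists chosen with results of these data known.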

How the data were processed

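RNA-seq was done on CD103+ lung dendritic cells of bleomycin-treated mice, in 5 samples before and 4 after culture, grouped by the treatment label. The authors deposited 1 table of normalized counts (a signal, with values at or above 0), and the submitters' processing notes name DESeq2 and the build GRCm38. The aligner, counter, annotation and strand setting are not given in the sources used here. Divided by the smallest step of their column, 100% of values gave whole numbers (tolerance 0.001), so whole reads were recovered. Factors differed from median-of-ratios factors by at most 6.7e-16 in relative terms. Of 49317 rows, 3782 carry no symbol and were left out. They hold 6.43 to 10.9% of reads before and 3.87 to 5.46% after culture. Gene length and GC content are not corrected for. Reads carry no molecular identifiers, so the spread between replicates was used as the error.

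Genes with a mean of at least 10 (18202) were fitted, after adding 1 and taking log2, by a two-sided limma model (version 3.58.1, R 4.3.3) with a mean-variance trend and no covariate, with Benjamini-Hochberg adjustment over all of them and a threshold of 0.05. Fold changes on this scale are understated for low genes. Replicates of a group differed well beyond counting error (chi-square per degree of freedom 6.43 to 60.3). Each sample was counted as its own replicate, although this spread does not show that the samples are independent. On simulated data limma recovered 186 of 200 changed genes among 18199 at a dispersion of 0.02 (4.12% of calls false) and 97 of 200 among 18207 at 0.1 (3% false). The simulated samples were independent, with known depth factors and the same dispersion for every gene. In the data 68.8% of tested genes were called, so these shares of false calls do not carry over to them.

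Members, substrate classes and lists were chosen with earlier results of these data known. Named genes are the 10 largest rises and 10 largest falls whose mean reaches 100 and whose groups do not overlap. They further include, in each class of 3 or more, the most abundant member and the largest rise and fall past the threshold, carriers fixed by name, and members among the 3 highest means that did not pass. This rule gave 64 members, of which 62 are printed, and 53 others were named after their values were seen. Some members are not reported here by name. Promoters and gene tables came from RefSeq and GENCODE M21 (both GRCm38.p6), with 241 of 243 members matched, 4 through an older symbol. Shared sequence is the percent of 50-base windows of the longest transcript found in other genes, and 32 members had 10% or more shared or overlapped.

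Alternatives were pseudocounts of 0.5 and 8, no filter, a minimum mean of 50, TMM and quantile scaling, edgeR 4.0.16 and DESeq2 1.42.0 on recovered reads, 2 replicate blocks and leaving out each sample. Tables and figures were made in Python 3.11.15 with matplotlib 3.10.9, pandas 2.3.3, SciPy 1.17.1 and NumPy 2.4.6.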

Additional observations from a re-analysis of the deposited data

Results flagged for a closer look

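In 22 of 250 groups checked, 1 sample lay far from the other samples of its group. Chance alone gives this in about 1 in 20 groups, and the genes checked share their libraries. Of the 22, 13 involve before replicate 4, the library with the highest level of the epithelial marker Sftpc. It was the lowest before culture for Slc3a2 (7623), Slc36a1 (1194), Slc43a2 (2878), Slc15a3 (6128), Slc29a3 (3405), Slc52a3 (559.1), Slc25a3 (8613), Slc25a39 (1117) and Slc16a13 (265.3). It was the highest for Slc34a2 (4749), Slc28a2 (531.5), Slc10a6 (66.96) and Slc5a3 (991.8). Before replicate 5 was highest for Slc30a2 (8.95), and before replicate 1 for Slc8a1 (2279).

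After culture, replicate 2 was lowest for Slc15a4 (1757) and highest for Slc25a28 (539.8) and Slc35c2 (1062). After replicate 3 was lowest for Slc35b2 (697.9) and highest for Slc26a11 (431.3). After replicate 4 was highest for Slc35a1 (391.5) and lowest for Slc7a2 (1746). Without before replicate 4, 89 carriers were higher and 91 lower, beside 89 and 86 with it.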

How the results depend on the processing

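Over 19 alternatives and 125 genes named in the text, 2306 of 2368 fitted values kept their direction and their side of the threshold, 43 lost the call, 8 gained one and 11 changed sign, and 106 of the genes kept call and direction in every alternative. The number of carriers past the threshold ranged from 165 to 180 when each sample was left out (83 to 89 higher, 80 to 94 lower), and their median log2 fold change from −0.0704 to −0.0227. Quantile normalization, which moved the median of all genes from 0.00647 to 0.0982, moved the carriers' median to 0.0504, with 94 higher and 81 lower. Carriers called in both the reported fit and an alternative had the same direction in each alternative. The minimum mean of 50 left 216 carriers, of which 84 were higher and 73 lower. Signs changed only for 5 carriers near 0 that did not pass. Leaving out each sample gave −0.016 to 0.159 for Slc19a1, −0.11 to 0.163 for Slc39a1, −0.0195 to 0.126 for Slc26a11, −0.0238 to 0.073 for Slc49a4 and −0.132 to 0.0381 for Slc8a1, and quantile normalization gave −0.000751 for Slc39a1. The cause of calls lost or gained was not tested. Members with few reads are limited by depth: their fold changes shrink with a pseudocount of 8, as for Slc2a13 (−1.84).

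The title's replicate numbers do not mark a shared animal in the labels, and the samples' deviations correlated at 0.0807, 0.0796, −0.213 and −0.0403 over these numbers. Numbers in the library names correlated at 0.0807, 0.247, 0.349 and 0.0447, and each cultured sample correlated best with its own library number (4 of 4), a hint from the data and not from the design. With a replicate block on the title number 81 carriers were higher and 81 lower (Slc49a4 at −0.0109), and with a block on the library number 92 were higher and 93 lower, beside 89 and 86. Slc27a4 was not called in the first of these (−0.36), and Slc3a2 (−0.175) and Slc31a1 (0.259) were called in the second. Between samples of the same library number Slc15a2 was 2.97, 3.17, 2.56 and 3.25 times higher before culture (adjusted p = 1.06e-08 with the library number block).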
